A study of Mus musculus with 12 samples.

Results

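The 7 genes described here belong to the major histocompatibility complex (MHC) class II antigen presentation pathway and were measured by RNA-seq in 12 mammary tumors. They were chosen by symbol (H2-Aa, H2-Ab1, H2-Eb1, Cd74, Ciita, H2-DMa and H2-DMb1) from the 54532 genes of the count table, and each symbol matched 1 gene. All tumors came from MMTV-Neu mice. In these, the mouse mammary tumor virus promoter drives the unactivated, wild-type rat neu gene (the homolog of human HER2) in mammary tissue. Treatment began when a tumor measured 4 mm across and lasted 10 days, on control diet (4 tumors), on MSU-42011 at 100 mg/kg diet (4 tumors) or on bexarotene at 100 mg/kg diet (4 tumors). Both compounds are agonists of the retinoid X receptor (RXR), a nuclear receptor that pairs with other nuclear receptors on DNA, and the powdered chow of the control mice is the common background diet. Each library was made from poly(A) RNA of a frozen piece of whole tumor, so tumor cells and infiltrating cells were measured together, and fewer cells of a type cannot be told apart from less RNA per cell. The age and the strain of the mice are not given in the sources used here. The labels number the tumors 1 to 4 in each group, and p-values measure the spread between these tumors.

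MHC class II molecules display peptides from endocytosed proteins to CD4+ T cells. They are made mainly by dendritic cells, macrophages and B cells, and interferon gamma can induce them in other cells, epithelial cells included. H2-Aa and H2-Ab1 encode the alpha and beta chains of I-A, and H2-Eb1 encodes the beta chain of I-E. Cd74, the invariant chain, fills the peptide groove until the molecule reaches the endosome. H2-DMa and H2-DMb1 encode chains of H2-M, which exchanges the remaining fragment of the invariant chain for peptide. Ciita is the transactivator that switches the genes on, without binding DNA itself, through RFX, CREB and NF-Y proteins bound to the X and Y boxes of their promoters.

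The promoter stretches through which Ciita is known to act are shown because the levels of Ciita and of its target genes are set side by side below. RefSeq promoter windows on GRCm38.p6, from 250 bases before to 50 bases after the annotated start, were found for 4 of the 7 genes. The windows were searched on both strands for CCAAT, the core of the Y box, and for AGCAACNG, a core of the X1 box. Of 32851 windows in the table, 37.4% held CCAAT and 5.14% held AGCAACNG. After the sequences were seen, CCAATCA (which overlaps CCAAT and is in 7.82% of all windows) and TGACGTCA (a cyclic AMP response element, as in an X2 box, in 1.79%) were searched as well. The stretches round the Y box follow, 5′ to 3′ on the strand of the gene, with matches to CCAAT, AGCAACNG and TGACGTCA on either strand in capitals. The first is chr17:34287852-34287933 on the minus strand, from 110 to 29 bases before the start of H2-Aa. The second is chr17:34305746-34305827 on the plus strand, from 121 to 40 bases before the start of H2-Eb1. The last, chr17:34153116-34153145 on the plus strand, is kept to 30 bases because it lies inside H2-DMb1 as the deposited tables place that gene.
H2-Aa: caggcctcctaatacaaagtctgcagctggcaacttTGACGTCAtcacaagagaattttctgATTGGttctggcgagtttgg
H2-Eb1: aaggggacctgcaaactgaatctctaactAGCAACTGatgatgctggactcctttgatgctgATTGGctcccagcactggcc
H2-DMb1: tgattcactcagtgATTGGtctgacctgcc

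All 3 stretches carried the Y box core on the minus strand of the gene, beginning 48 bases before the start of H2-Aa, 59 before that of H2-Eb1 and 61 before that of H2-DMb1. Each of these was also a match to CCAATCA. AGCAACNG was found in the window of H2-Eb1, 92 bases before its start, and not in the windows of H2-Aa or H2-DMb1. TGACGTCA was found only for H2-Aa among these windows, 74 bases before its start. H2-DMa had windows at 2 annotated starts, of which one held CCAAT, 198 bases upstream, and neither held the other motifs. Among the other MHC class II genes, H2-DMb2, H2-Oa, H2-Ob and H2-Eb2 each held CCAATCA, and H2-Eb2 also held AGCAACNG. A match says only that these letters are present.

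**Figure D1:**
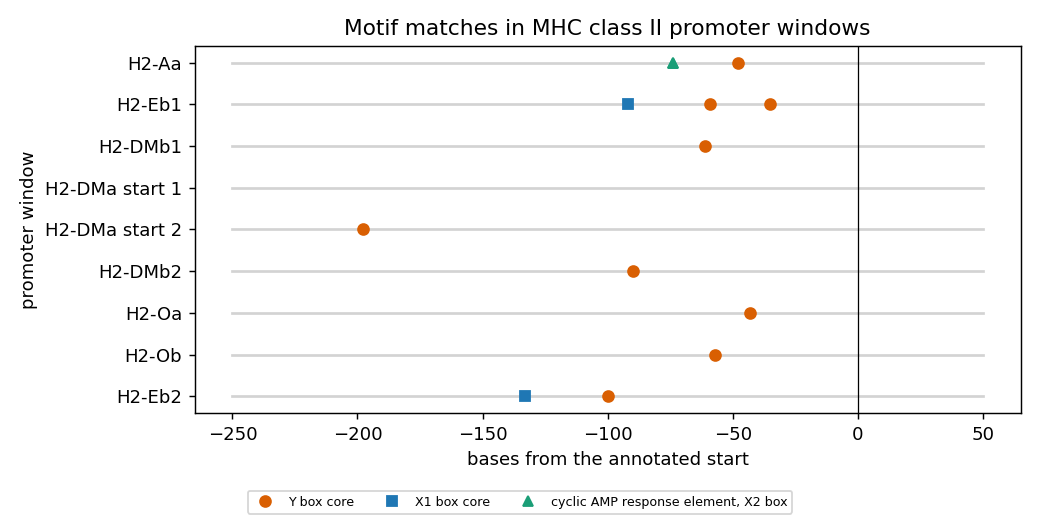
Positions of motif matches (points) in 300-base RefSeq promoter windows of MHC class II genes, in bases from the annotated start (0); grey lines are the windows. A Y box core (CCAAT) lies between 43 and 100 bases before the start in each window except those of H2-DMa, where it lies 198 bases upstream of the second start and is not matched at the first. Both H2-DMa windows lie upstream of the gene as the deposited tables place it.

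The 12 libraries held between 16583413 and 25925027 counts, and 3 counts, taken as the floor, correspond to between 0.116 and 0.181 CPM (counts scaled to the library total). Bexarotene replicate 1 stood apart from the rest. It lay at −115 on the first principal component (33.6% of the variance), against −16.2 to 34.2 for the other tumors, and its median correlation across genes with the others was 0.915, against at least 0.961. Results that rest on this tumor are given with and without it. All 7 genes passed edgeR's filter on low counts, as did 15504 genes in all, and their counts ran from 13 for H2-Aa in bexarotene replicate 4 to 10580 for Cd74 in bexarotene replicate 1. Intervals and floors of single counts cover counting error only.

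Levels of different genes were compared as FPKM, which is scaled by gene length. Cd74 had the highest median over the 12 tumors, 44.4 FPKM, and the widest range, from 13.2 to 308 FPKM. H2-DMb1 followed with a median of 27.4 FPKM and a range of only 23.3 to 31.8 FPKM. H2-Ab1 had a median of 9.51 FPKM, H2-DMa of 7.61, H2-Aa of 3.22, Ciita of 1.62 and H2-Eb1 of 1.26. Neighbors in this order were not cleanly separated. Cd74 exceeded H2-DMb1 in 9 of 12 tumors, H2-DMb1 exceeded H2-Ab1 in 10, H2-Ab1 exceeded H2-DMa in 7, H2-DMa exceeded H2-Aa in 10, H2-Aa exceeded Ciita in 9 and Ciita exceeded H2-Eb1 in 8. The length inside the FPKM was shorter than the length listed in the tables for 6 of the 7 genes, by a factor of 2.74 for Ciita and 2.29 for H2-Aa. With the listed length, H2-DMa ranked above H2-Ab1, and H2-Eb1 above Ciita.

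The chains of I-A differed widely between tumors that shared a diet. H2-Aa (chr17:34282744-34287827) measured 7.002, 12.7, 1.87 and 2.84 normalized CPM in control replicates 1 to 4. With MSU-42011 it measured 2.09, 2.54, 2.93 and 1.63 normalized CPM. With bexarotene it measured 20.1, 5.15, 1.26 and 0.797 normalized CPM. The highest and the lowest of the 12 values therefore both belonged to bexarotene, and the MSU-42011 values lay close together, within the range of both other groups except for 1 that was below every control. The group means were 6.10 ± 4.92 for control, 2.30 ± 0.559 for MSU-42011 and 6.84 ± 9.08 for bexarotene (SD, n = 4 each). H2-Aa was lower with MSU-42011 than in control by −1.41 ± 0.87 on the log2 scale (SE, edgeR quasi-likelihood test, 95% interval −3.29 to 0.47, Benjamini-Hochberg adjusted p = 0.9999), which does not exceed the spread between tumors. The difference between the group means of log2 normalized CPM was −0.94, and an exact permutation test of it (two-sided, 4 against 4, smallest possible p 0.0286) gave p = 0.20.

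H2-Ab1 (chr17:34263209-34269418), the partner chain, followed the same order of tumors closely. It measured 14.9, 29.5, 2.78 and 9.83 normalized CPM in control replicates 1 to 4, then 3.96, 7.998, 6.66 and 5.74 with MSU-42011, and 46.8, 10.5, 4.07 and 2.57 with bexarotene. Bexarotene replicate 1 and control replicate 2 were again the highest, bexarotene replicate 4 was again the lowest, and the groups overlapped. The difference of MSU-42011 from control was −1.23 ± 0.82 (log2, SE, 95% interval −3.02 to 0.57) and that of bexarotene from control 0.17 ± 0.82.

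H2-Eb1 (chr17:34305877-34316199), the beta chain of I-E, was the lowest of the 7 and moved less. It measured 2.55, 2.46, 0.748 and 0.733 normalized CPM in the controls. The MSU-42011 tumors measured 0.770, 1.58, 1.35 and 1.63, and the bexarotene tumors 3.32, 0.906, 1.65 and 1.16. Control replicates 1 and 2 and bexarotene replicate 1 were high, and the groups overlapped. These values rest on 14 to 90 counts.

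Cd74 (chr18:60803848-60812646), the invariant chain, varied as I-A did, at a higher level. The controls measured 129, 296, 26.4 and 61.4 normalized CPM. The MSU-42011 tumors measured 42.6, 78.2, 56.4 and 44.3, and the bexarotene tumors 390.4, 103, 31.7 and 18.6. Every MSU-42011 value lay between the lowest and the highest control. The means were 128 ± 119 for control, 55.4 ± 16.4 for MSU-42011 and 136 ± 174 for bexarotene (SD, n = 4 each), and MSU-42011 differed from control by −1.21 ± 0.85 (log2, SE, 95% interval −3.07 to 0.65).

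Ciita (chr16:10480059-10528418), the transactivator, had another order of tumors than I-A. It measured 4.98, 6.39, 4.06 and 8.66 normalized CPM in the controls. With MSU-42011 it measured 5.11, 3.03, 6.66 and 7.92, and with bexarotene 8.04, 3.34, 5.91 and 4.29. Its highest value was in control replicate 4, where H2-Aa measured 2.84 CPM, and the 3 groups overlapped. MSU-42011 differed from control by −0.08 ± 0.36 (log2, SE) and bexarotene by −0.16 ± 0.36. Ciita overlaps Dexi on the opposite strand in the tables, with 1431 counts for Ciita and 13199 for Dexi over the 12 tumors. The strand setting of the counting is not given in the sources used here, so reads of the pair may not be told apart where they overlap. Dexi ran from 44.7 to 67.5 normalized CPM.

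The H2-M chains behaved unlike each other. H2-DMa (chr17:34135182-34139101) measured 12.4, 11.6, 5.45 and 11.1 normalized CPM in the controls, then 6.76, 5.51, 8.72 and 8.17 with MSU-42011, and 18.1, 8.39, 6.88 and 7.30 with bexarotene. Bexarotene replicate 1 was the highest and control replicate 3 the lowest. H2-DMb1 (chr17:34153072-34160230) measured 30.1, 34.0, 27.8 and 29.3 in the controls, 24.1, 33.5, 26.7 and 31.7 with MSU-42011, and 25.9, 32.2, 29.9 and 29.7 with bexarotene. Bexarotene replicate 1, the highest tumor for 5 of the other genes, was the second lowest for H2-DMb1. The 95% intervals for H2-DMb1 were the narrowest, −0.34 to 0.21 for MSU-42011 against control and −0.32 to 0.23 for bexarotene against control (log2). H2-DMb1 has a close paralog, H2-DMb2. Of the 1579 stretches of 100 bases in the GENCODE transcripts of H2-DMb1, 11.3% also occurred in transcripts of H2-DMb2, against 0 for each of the other 6 genes with any other gene, so the split of reads between the pair is less certain.

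**Figure D2:**
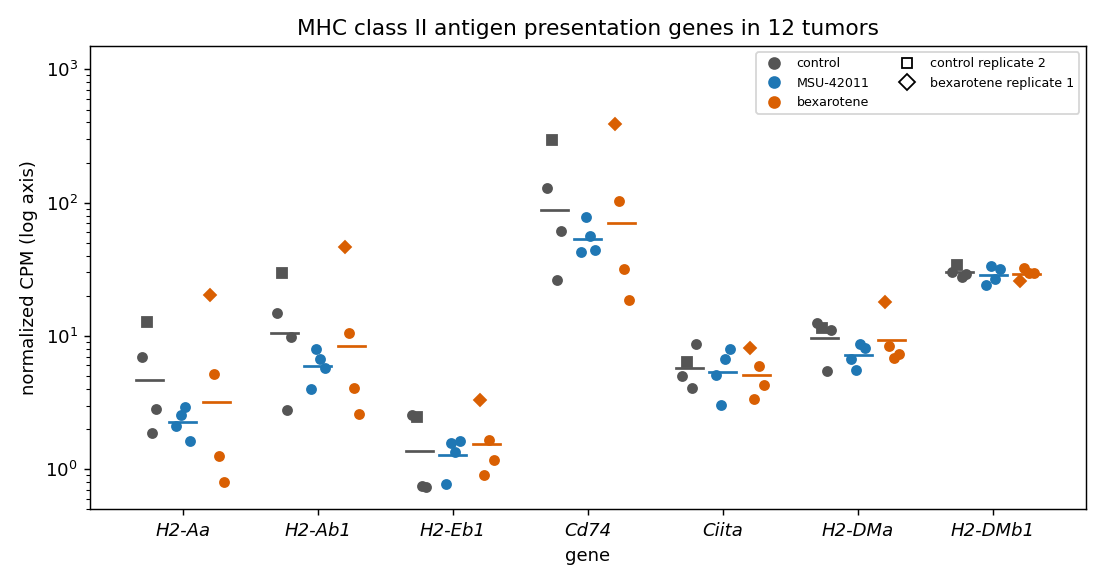
Normalized CPM (log axis) of the 7 genes, with 1 point per tumor, colored by group, and a line at each group's geometric mean. Bexarotene replicate 1 (diamonds, 390.4 CPM of Cd74) and control replicate 2 (squares, 296 CPM) lie above the other tumors for H2-Aa, H2-Ab1 and Cd74, while all 12 tumors lie between 24.1 and 34.0 CPM for H2-DMb1.

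None of the 7 genes passed the test in any comparison. Against control, 0 of 7 were called with MSU-42011 and 0 of 7 with bexarotene, and 0 of 7 were called between the agonists (edgeR quasi-likelihood test, adjusted p of at least 0.962). None had an unadjusted p under 0.05. The background was the same, since 0% of the 15504 genes tested were called in these comparisons and among the 3 groups. Over all genes, an unadjusted p under 0.05 was reached by 309 for MSU-42011 and by 998 for bexarotene, each set against control, by 612 between the agonists and by 657 among the 3 groups. In the same order, DESeq2 called 1 gene (0.00338%), 6 (0.0356%), 25 (0.153%) and 5 (0.0296%) of those it gave an adjusted p, and none of the 7 was among them. The values of 2 groups did not overlap for 0 of the 7 genes in each comparison, where this held for 1.97% of all tested genes with MSU-42011 and for 2.03% with bexarotene, each set against control, and for 1.17% between the agonists.

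All 7 estimates for MSU-42011 against control were below 0, with a median log2 fold change of −0.47, where the median of all tested genes was 0.00155. For bexarotene against control 5 were above 0 and 2 below, with a median of 0.09 (0.03 for all genes). For MSU-42011 against bexarotene 6 were below 0 and 1 above, with a median of −0.48 (−0.02 for all genes). Without bexarotene replicate 1, bexarotene against control turned to 1 above 0 and 6 below (median −0.43), and MSU-42011 against bexarotene to 4 above and 3 below (median 0.09). MSU-42011 against control had 7 below (median −0.47), but that tumor is in neither of its groups, so its estimates could hardly move. Without control replicate 2, bexarotene against control had 6 above and 1 below (median 0.40). These comparisons share tumors, and every one of these 95% intervals included 0 except that of H2-Aa in one fit. That fit was MSU-42011 against control without bexarotene replicate 1 (−2.79 to −0.03), and H2-Aa was not called in it. The intervals of H2-Aa, H2-Ab1 and Cd74 were wide enough to hold more than a 2-fold difference in either direction for bexarotene against control (for Cd74, −1.76 to 1.94 on the log2 scale). A p that misses the threshold does not show that the agonists act alike.

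Single tumors set several of these values. Without bexarotene replicate 1, bexarotene was below control by −1.33 ± 0.68 for H2-Aa, −1.31 ± 0.63 for H2-Ab1 and −1.32 ± 0.70 for Cd74 (log2, SE), where with it the same differences were 0.17, 0.17 and 0.09. The difference between the agonists then became −0.08, 0.09 and 0.11 for these genes. That tumor is in neither group of MSU-42011 against control, so this estimate for H2-Aa could hardly move without it. It was −1.41 ± 0.63 (95% interval −2.79 to −0.03, edgeR adjusted p = 0.9998). The SE fell from 0.87 because all groups share 1 estimate of the spread. Without control replicate 2 the difference of MSU-42011 from control was −0.77 ± 0.91 for H2-Aa, −0.60 ± 0.86 for H2-Ab1 and −0.39 ± 0.86 for Cd74. With both tumors left out, a choice made after the data were seen, H2-Aa differed from control by −0.76 ± 0.62 with MSU-42011 and by −0.68 ± 0.66 with bexarotene. H2-DMb1 stayed between −0.08 and 0.08 with either or both tumors left out, in all 3 comparisons. With every tumor kept, limma on log2 of FPKM plus 1 also put bexarotene below control. It gave −0.28 for H2-Aa, −0.22 for H2-Ab1 and −0.29 for Cd74. The group means of log2 normalized CPM differed in the same direction, by −0.39, −0.28 and −0.34 for these genes. The turn was therefore also present on normalized CPM without limma, and its cause was not tested.

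**Figure D3:**
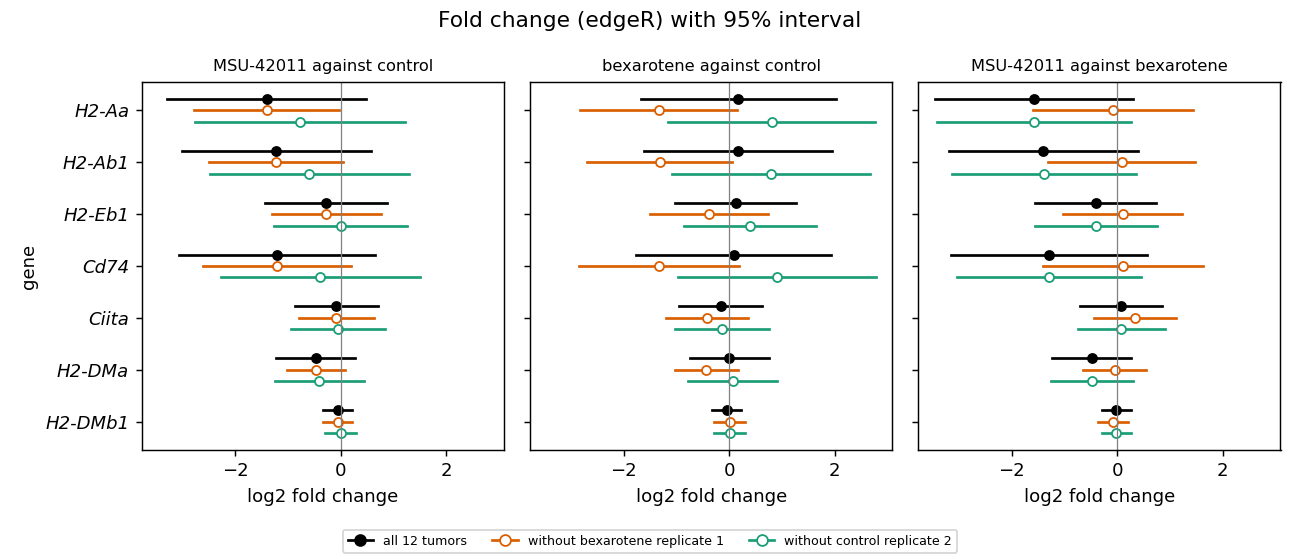
Log2 fold change (points) and 95% interval (lines) of each gene in 3 comparisons, by edgeR, with all 12 tumors (black) and without bexarotene replicate 1 (orange) or control replicate 2 (green). For bexarotene against control, H2-Aa moves from 0.17 to −1.33 without bexarotene replicate 1, while H2-DMb1 stays near 0 in each panel.

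The genes differed in their spread within groups. The within-group SD of log2 CPM was 1.43 for Cd74, 1.29 for H2-Ab1 and 1.24 for H2-Aa, which put them above 98.9%, 98.4% and 98.2% of the 15504 tested genes (median SD 0.289). H2-Eb1 (SD 0.595), Ciita (0.496) and H2-DMa (0.493) lay above 85.7%, 79.7% and 79.4% of genes. H2-DMb1 (0.161) lay above only 15.9%. The highest tumor exceeded the lowest 25.3-fold for H2-Aa, 21.02-fold for Cd74 and 18.2-fold for H2-Ab1, but 1.41-fold for H2-DMb1. Without control replicate 2 and bexarotene replicate 1 these ratios were 8.79, 6.93, 5.78 and 1.39, and the SD of Cd74, H2-Ab1 and H2-Aa still lay above 97.8%, 96.9% and 96.1% of genes.

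Across the 12 tumors, H2-Aa was most closely related to Cd74 (Pearson's r = 0.977, Spearman's rho = 0.937) and to H2-Ab1 (r = 0.962, rho = 0.923). Of 12 relations computed with H2-Aa, both had a permutation p of 1e-05 for r, the smallest that 100000 resamples can give, and an adjusted p of 6e-05. For rho the permutation p was 3e-05 for Cd74 and 6e-05 for H2-Ab1, with an adjusted p of 0.00036 for each. Both relations held without the 2 tumors farthest from the median of H2-Aa, bexarotene replicate 1 and control replicate 2 (r = 0.936 and 0.886), and after the group means were subtracted (r = 0.982 and 0.960). H2-DMa was related to H2-Aa less closely (r = 0.811, permutation p = 0.00117, adjusted p = 0.00234; rho = 0.762, permutation p = 0.00513, adjusted p = 0.00879), with r = 0.584 without these tumors. The relation of H2-Eb1 (r = 0.668, permutation p = 0.0174, adjusted p = 0.0262; rho = 0.420, permutation p = 0.177, adjusted p = 0.236) rests on them, since r was 0.236 without both, 0.608 without control replicate 2 and 0.485 without bexarotene replicate 1, and neither of the last passed the threshold. Ciita (r = 0.255, permutation p = 0.423, adjusted p = 0.461; rho = 0.231, permutation p = 0.471, adjusted p = 0.565) and H2-DMb1 (r = 0.0384, permutation p = 0.905, adjusted p = 0.905; rho = 0.0839, permutation p = 0.800, adjusted p = 0.851) were not detectably related to H2-Aa.

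**Figure D4:**
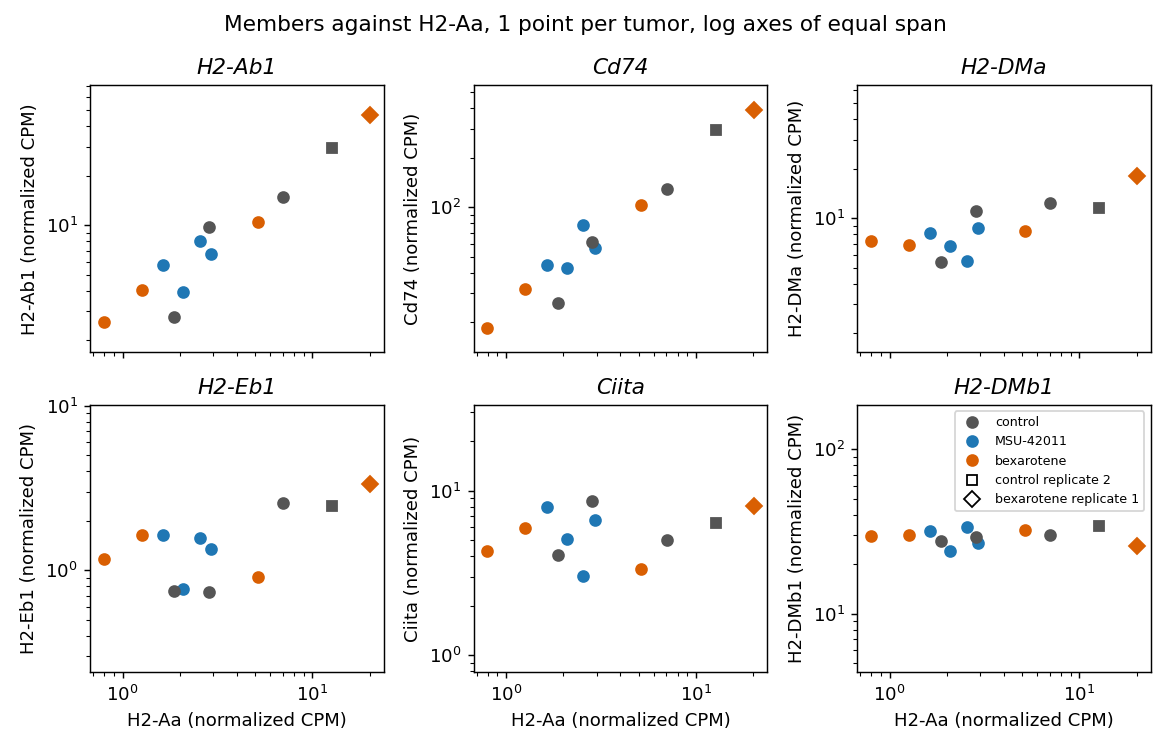
Normalized CPM of 6 genes against that of H2-Aa, 1 point per tumor, on log axes that span the same number of fold changes in each panel. H2-Ab1 and Cd74 (r = 0.962 and 0.977) lie along a line, and Ciita and H2-DMb1 (r = 0.255 and 0.0384) do not.

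The ratio of chains within a tumor, taken on FPKM, describes the same genes without a common scale between tumors. H2-Ab1 exceeded H2-Aa in each of the 12 tumors, by a factor of 1.55 to 3.66. Cd74 exceeded H2-Aa by a factor of 8.69 to 19.0. The ratio of H2-Eb1 to H2-Aa was less constant, from 0.114 in bexarotene replicate 1 to 1.01 in bexarotene replicate 4, and that of Ciita to H2-Aa ran from 0.0937 to 1.26 in the same tumors. H2-DMb1 exceeded H2-DMa by a factor of 1.51 to 6.39. Of 15 exact two-sided permutation tests of these ratios between groups, none passed adjustment (adjusted p of at least 0.857). The largest difference was in H2-Eb1 to H2-Aa, 0.96 higher with MSU-42011 than in control on the log2 scale (exact p = 0.0571, adjusted p = 0.857).

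Of the other MHC class II genes, only H2-DMb2 and H2-Ob passed the filter on low counts. H2-DMb2, the paralog of H2-DMb1, ran from 12.1 to 19.8 normalized CPM, and H2-Ob, a chain of the H2-O inhibitor of H2-M, from 0.429 to 1.84. Neither was called in a comparison, with log2 differences from control of −0.003 and −0.31 for MSU-42011 and −0.12 and 0.05 for bexarotene. H2-Oa, the other H2-O chain, had a median of 0.136 CPM, within the floor, and H2-Eb2 was at 0 in 9 tumors. H2-Oa measured at most 0.129 CPM in control, 0.650 with MSU-42011 (replicate 3) and 0.812 with bexarotene (replicate 1). H2-Ea-ps, the I-E alpha chain pseudogene of the reference strain, reached 3.32 CPM in bexarotene replicate 1 and had a median of 0.327.

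None of the factors through which Ciita acts passed the test. Of 7 RFX, NF-Y and CREB genes tested, 0 were called in any comparison, 4 were higher and 3 lower with each agonist than in control, and the median log2 fold changes were 0.02 for MSU-42011 and 0.03 for bexarotene. Nfyc, Nfya and Creb1, the most abundant of them, ran from 79.3 to 115, from 40.3 to 61.1 and from 43.9 to 58.3 normalized CPM. Rfxank, a subunit of RFX, had the lowest estimates of the 7, −0.26 with MSU-42011 and −0.25 with bexarotene (log2, against control, not called), and ran from 12.3 to 25.9 CPM. The summed level of the list, which the most abundant genes dominate, was between 263 and 306 CPM in all tumors. None of the 8 tested genes of the interferon gamma axis was called either (median −0.08 with MSU-42011 and 0.02 with bexarotene). Jak1, the most abundant, ran from 232 to 346 CPM and Irf1, a factor induced by interferon gamma, from 41.4 to 68.6. Ifng itself, named after its values were seen, did not pass the filter and reached at most 0.356 CPM, with 0 counts in 6 tumors.

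Genes that prepare or retire class II molecules gave the same count. Of 8 endosomal processing genes, 0 were called; with MSU-42011 1 was higher and 7 lower than in control (median −0.14), and with bexarotene 4 were higher and 4 lower (median 0.03). Ctsb, Ctsd and Ctsh, lysosomal cathepsins, ran from 670.4 to 1349, from 688 to 1216 and from 245 to 404 normalized CPM. March1, a ubiquitin ligase that sends class II molecules to lysosomes, measured 12.2 CPM in bexarotene replicate 1 and between 0.748 and 3.09 in the other tumors. Of 5 genes of costimulatory or inhibitory ligands tested 0 were called, and Cd86, a ligand of CD28, ran from 1.12 to 8.78 CPM, highest in bexarotene replicate 1. On the T cell side, Cd4 and Lag3, both of whose proteins bind MHC class II, ran from 0.802 to 3.14 and from 0.695 to 3.47 CPM, highest in MSU-42011 replicate 3, and were not called.

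MHC class I genes, which present cytosolic peptides to CD8+ T cells, did not share the order of tumors. Of 9 tested, 9 were lower than control with MSU-42011 (median −0.28) and 9 with bexarotene (median −0.54), and 0 were called. In control replicate 2, the second highest tumor for H2-Aa, H2-Ab1 and Cd74, B2m (the light chain of class I) measured 518 CPM, against 1042 to 4384 in the other tumors. H2-K1 and H2-D1, the class I heavy chains, were also lowest there, at 538 and 1454 CPM. In control replicate 4 they were highest, at 2976 and 6045 CPM.

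Markers of leukocytes, including the cells that carry class II, moved with I-A. The summed level of 12 macrophage markers was 2430 CPM in bexarotene replicate 1 and between 297 and 865 CPM in the other 11 tumors, and over the 12 tumors it was related to H2-Aa with r = 0.847 (permutation p = 0.00061, adjusted p = 0.00163) and rho = 0.867 (permutation p = 0.00065, adjusted p = 0.00156), and r = 0.753 without the 2 farthest tumors. Lyz2, C1qa and C1qb, the most abundant macrophage markers, were each highest in bexarotene replicate 1, at 780.4, 504 and 292 CPM. The summed level of 10 dendritic cell markers was related to H2-Aa with r = 0.889 (permutation p = 9e-05, adjusted p = 0.00036) and rho = 0.909 (permutation p = 0.00016, adjusted p = 0.00064), and Ptprc, which marks all leukocytes, with r = 0.825 (permutation p = 0.00068, adjusted p = 0.00163) and rho = 0.853 (permutation p = 0.00099, adjusted p = 0.00198). Without the 2 farthest tumors r was 0.768 and 0.663. Control replicate 2, with 12.7 CPM of H2-Aa, had 12.6 CPM of Ptprc and 680 CPM of the macrophage list, and MSU-42011 replicate 3, with 2.93 CPM of H2-Aa, had 15.0 and 865 CPM.

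The macrophage list ran from 299 to 788 CPM in control, from 380.2 to 865 with MSU-42011 and from 297 to 2430 with bexarotene (297 to 609 without replicate 1), and 0 of its 12 genes were called. The dendritic cell list ran from 13.8 to 36.1, from 18.6 to 35.3 and from 14.3 to 63.7 CPM. Of its 10 genes 6 passed the filter, and the medians of 6 of 10 were under 1 CPM. Irf8, Itgax and Zbtb46, the most abundant, had medians of 12.6, 5.08 and 3.01 CPM. They dominate the sum, so its relation to H2-Aa mainly reflects these genes. The 5 tested T cell markers were not called, and the summed list of 7 ran from 3.80 to 12.03 CPM, with r = 0.5002 to H2-Aa (permutation p = 0.0978, adjusted p = 0.130) and rho = 0.720 (permutation p = 0.0109, adjusted p = 0.0163). Without the 2 tumors farthest from the median of H2-Aa, r of the T cell list was 0.731, near that of the macrophage list. B cell markers were low. None of 7 B cell markers passed the filter, each was at 0 in at least 1 tumor, and their sum was between 0.245 and 3.39 CPM. Its relation to H2-Aa (r = 0.769, permutation p = 0.00396, adjusted p = 0.00679; rho = 0.867, permutation p = 0.00046, adjusted p = 0.00138) rests on 4 to 92 summed counts per tumor (median 18.5), the most in bexarotene replicate 1, and did not pass for r without bexarotene replicate 1 (r = 0.603). The 5 lymph node markers summed to 1.77 CPM (48 counts) in bexarotene replicate 1 and to at most 0.477 CPM in the other tumors. Of these, Cxcl13, a chemokine of B cell follicles, named after its values were seen, gave 40 of the 48 counts, and Ccl21a and Ccl19 were at 0 in all tumors. The part of these cell types and of lymph node tissue in the differences of H2-Aa was not tested.

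Epcam, Krt18 and Krt8, the most abundant epithelial markers, ran from 1353 to 2533, from 525 to 1353 and from 485 to 1225 CPM. Krt19, of the same list and named after its values were seen, had a median of 0.412 CPM and was at 0 in 2 tumors. Together 7 epithelial markers measured 2891 CPM in bexarotene replicate 1 and between 4293 and 5881 in the other tumors, and 0 of 7 were called. Their relation to H2-Aa was r = −0.389 (permutation p = 0.213, adjusted p = 0.256) and rho = −0.0629 (permutation p = 0.851, adjusted p = 0.851), and r was 0.366 without bexarotene replicate 1. That tumor also had 7351 CPM of 6 fibroblast markers (76.3 to 603 in the others) and 323 CPM of 4 endothelial markers (55.9 to 154). Its 4 muscle markers measured 167 CPM, as against 97.8 in control replicate 1 and at most 3.31 in the rest, and its 4 adipocyte markers 7.75 CPM, against at most 2.03. In control replicate 2 the fibroblast and endothelial sums were the lowest of the 12.

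**Figure D5:**
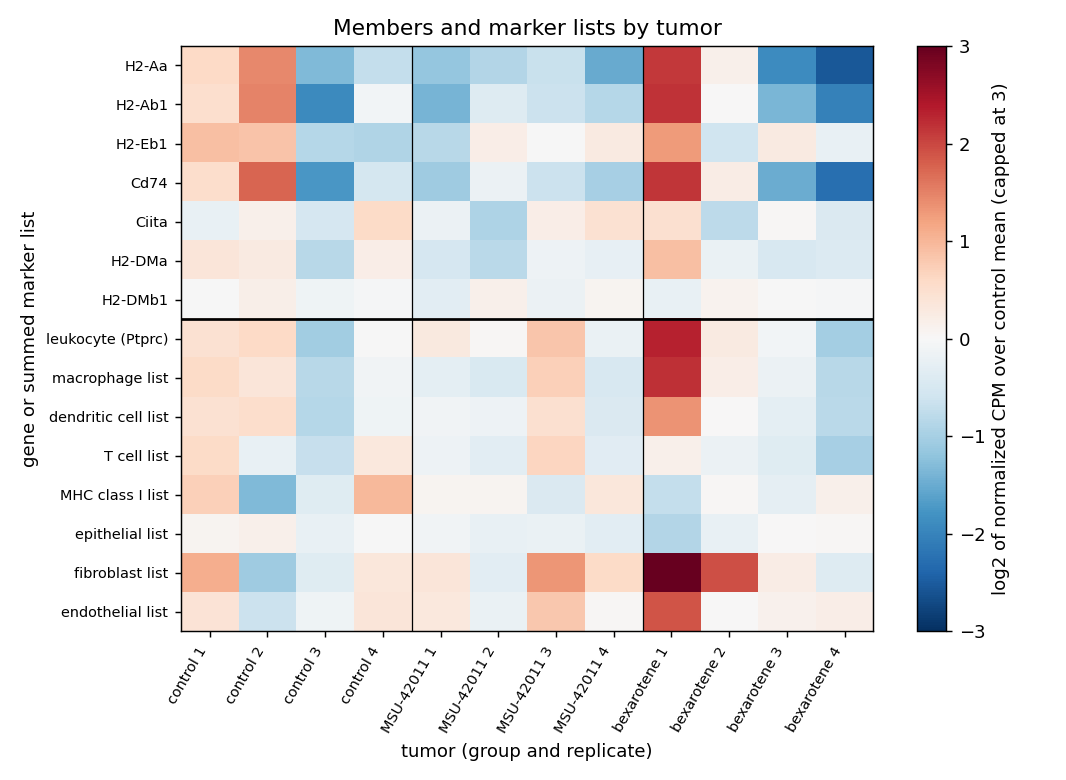
Log2 of normalized CPM over the control mean for the 7 genes (top) and for Ptprc and summed marker lists (bottom), 1 column per tumor, with colors capped at 3. H2-Aa, H2-Ab1 and Cd74 are high in control replicate 2 and bexarotene replicate 1, whereas the fibroblast list is low in the first (76.3 CPM) and high in the second (7351 CPM).

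The genes most like the group were ranked by Pearson's r, over 12 tumors, with the mean of the 7 standardized log2 values. Renbp, which encodes a renin-binding protein, ranked first (r = 0.924), followed by Gm44751 (0.918), Lpl, the lipoprotein lipase gene (0.912), Gm37352 (0.909), Stom (0.908), Ntrk2 (0.9005), Matn2 (0.9003), Neurl3 (0.895) and Msr1, a macrophage scavenger receptor (0.890). Of these 9 genes, 7 were highest in bexarotene replicate 1 and 2 in control replicate 2. Without these tumors, r ranged from 0.719 for Msr1 to 0.898 for Gm44751 over the remaining 10 tumors. The genes were picked for this likeness, and no test was made. Gm37352 ran only from 0.110 to 0.852 CPM, with its lowest value under the floor.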

How the data were processed

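RNA-seq of 12 tumors was used. The authors deposited raw read counts per gene, as whole numbers without normalization, and FPKM, which the authors scaled by library size and gene length. Per the submitters' processing notes, STAR 2.6.1d, featureCounts 1.5.0-p3 and DESeq2 were used. Coordinates are GRCm38. Counts were normalized by TMM, filtered by filterByExpr and tested with edgeR 4.0.16 (quasi-likelihood, 1 mean per group, all 12 tumors), with Benjamini-Hochberg adjustment over 15504 genes and a threshold of 0.05. limma 3.58.1 and DESeq2 1.42.0 (R 4.3.3) served as alternatives. The test was checked on simulated data, drawn with a spread that followed the mean level only and without single distant tumors. The check therefore does not cover genes as variable as H2-Aa, H2-Ab1 and Cd74. Log2 values of CPM used a pseudocount of 0.5. Groups came from the sample titles, and no tumor was left out. The members, gene lists and tests were chosen with earlier results of these data known. The naming rule took all 7 members, every tested MHC class II gene, at most 3 genes of each other list by mean count, and the 10 genes most like the members, of which 1 is not reported here. A mismatch between the animals' MHC alleles and the reference genome was not tested.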

Additional observations from a re-analysis of the deposited data

Results flagged for a closer look

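In all, 60 groups of 4 tumors (genes, ratios and marker lists) were searched by Dixon's test for a tumor far from the other 3. Chance passes about 1 in 20 groups when values are normally distributed and groups are independent. Here the groups shared tumors and CPM was not on a log scale, so that rate may not hold. Such a tumor was found in 7 groups. The gap to the nearest tumor, as a share of the group's range, is given for each. Bexarotene replicate 1 was the distant tumor for H2-DMa (0.865; 18.1 against 6.88 to 8.39 CPM), for the log2 ratio of H2-DMb1 to H2-DMa (0.889; 0.59 against 2.01 to 2.19), for Ptprc (0.843; 41.6 against 4.11 to 10.02 CPM), for the macrophage list (0.854; 2430 against 297 to 609 CPM) and for the B cell list (0.836; 3.39 against 0.245 to 0.763 CPM). MSU-42011 replicate 3 was the distant tumor for the macrophage list (0.888; 865 against 380.2 to 435 CPM) and for the T cell list (0.860; 12.03 against 6.04 to 6.87 CPM).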

How the results depend on the processing

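By edgeR and limma, 0 genes were called in each setting run, except 1 gene as given next. DESeq2 called 1 gene for MSU-42011 and 6 for bexarotene (each against control), 25 between the agonists and 5 among the 3 groups. Leaving out 1 tumor gave 0 to 1 genes for bexarotene against control and among the 3 groups, where the single gene appeared without MSU-42011 replicate 2. In no setting was a member called. The labels do not say whether the replicate numbers pair the tumors. The deviations of same-numbered tumors correlated between −0.35 and 0.35, and those of differently numbered tumors between −0.31 and 0.36. With the replicate number as a block, 0 genes were called in each comparison, and the bexarotene values turned to −0.35 (H2-Aa), −0.19 (H2-Ab1), −0.24 (Cd74) and −0.045 (H2-DMa) log2 against control.

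For the same comparison, limma gave −0.28, −0.22 and −0.29 for H2-Aa, H2-Ab1 and Cd74 with FPKM plus 1. With FPKM plus 0.1 it gave −0.47, −0.26 and −0.30. The group means of log2 normalized CPM differed by −0.39, −0.28 and −0.34 for these genes. H2-DMa, at 0.00698, turned to −0.0042 with DESeq2 size factors, −0.012 without the filter, −0.019 with the groups fitted alone, −0.0066 by DESeq2 and −0.0025 and −0.0058 by limma (plus 1 and plus 0.1). The causes were not tested.

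With any 1 tumor left out, or control replicate 2 and bexarotene replicate 1 together (a setting chosen after seeing the data), MSU-42011 against control ran from −0.52 to 0.024 for H2-Eb1, −0.29 to 0.15 for Ciita and −0.14 to 0.017 for H2-DMb1. Bexarotene against control ran from −1.33 to 0.81 for H2-Aa, −1.31 to 0.80 for H2-Ab1, −0.38 to 0.43 for H2-Eb1, −1.32 to 0.91 for Cd74, −0.42 to 0.070 for Ciita, −0.43 to 0.15 for H2-DMa and −0.089 to 0.076 for H2-DMb1. MSU-42011 against bexarotene ran from −1.74 to 0.085 for H2-Ab1, −0.62 to 0.11 for H2-Eb1, −1.66 to 0.11 for Cd74, −0.12 to 0.34 for Ciita and −0.096 to 0.060 for H2-DMb1, and the median of the 7 from −0.63 to 0.085. The log2 ratios ran between the agonists from −0.15 to 0.14 (H2-Ab1 to H2-Aa), −0.29 to 0.76 (H2-Eb1 to H2-Aa), −0.093 to 1.16 (Ciita to H2-Aa) and −0.027 to 0.51 (H2-DMb1 to H2-DMa), and for bexarotene against control from −0.22 to 1.03 (Ciita to H2-Aa) and −0.15 to 0.38 (H2-DMb1 to H2-DMa). The correlation with H2-Aa ran from −0.20 to 0.39 for H2-DMb1 and from −0.67 to 0.37 for the epithelial list. Depth limits H2-Eb1, at 14 to 90 counts in a tumor, and H2-Aa in its lowest tumor, at 13 counts.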
